A study of Homo sapiens with 21 samples.

Results

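Binding of 2 truncated RUNX1 proteins, R232fs and Y287X, was compared in Jurkat cells, an established human T-cell leukaemia line. The members were the 4 anti-HA peak lists of these genotypes, chosen by the labels alone, out of 14 HA or TY1 lists and 21 samples in the series. They held 283610 of the 791439 peaks on chromosomes 1 to 22 and X. The other lists were used only as readouts: the TY1 lists of the same clones, the lists of the missense genotype G365R and those of WT cells.

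All cells were untreated and were fixed for 15 min, with 5 min in stop solution, before chromatin immunoprecipitation and sequencing. R232fs is a frameshift and Y287X a stop codon further along the protein, each named for the residue at which it lies. In the mutant clones the HA tag, precipitated with the antibody ab9110, marks the mutant protein, and TY1 marks wild-type RUNX1 of the same cells. In WT both tags mark wild-type protein. Each list came from a single knock-in clone, so a genotype here is a pair of clones. An HA list and the TY1 list of the same replicate number carry the same clone name. Differences between the genotypes cannot be told apart from differences between these particular clones.

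RUNX1 is a transcription factor of blood cell development and of T-cell maturation. Its Runt domain, near the N-terminus, binds DNA together with the partner protein CBFB, and the C-terminal part carries a transactivation region and binds cofactors. Both changes lie beyond the Runt domain and remove at least part of the C-terminal region. Mutant RUNX1 alleles of this kind occur in inherited predisposition to leukaemia and in acquired leukaemia. The comparison therefore sets a RUNX1 protein changed by a frameshift beside one ended by a stop codon further along, under the same tag. The labels do not say where the R232fs protein ends.

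More peaks were called for R232fs than for Y287X. The R232fs lists held 77691 and 86433 peaks and the Y287X lists 51892 and 67594. Every R232fs list exceeded every Y287X list, with means of 82062 ± 6182 and 59743 ± 11103 (SD, n = 2 each), a ratio of 1.37. The exact 2-sided permutation test over the 4 lists gave p = 0.333, the smallest value that 2 lists against 2 allow. Covered length followed the same order, at 40.8 and 46.3 Mb for R232fs and 27.5 and 38.0 Mb for Y287X (exact p = 0.333).

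Most of the surplus lay among weaker peaks. Fold is the authors' linear enrichment of the summit over local background, and peaks of fold 5 or more numbered 18708 and 18577 in R232fs and 13379 and 18163 in Y287X. These made up 24.1% and 21.5% of the R232fs lists and 25.8% and 26.9% of the Y287X lists, so the strong share was lower in both R232fs lists. Peaks of this strength made up 2871.5 of the mean surplus of 22319. Median fold overlapped between the genotypes, at 3.62 and 3.48 for R232fs and 3.60 and 3.62 for Y287X. With peaks of −log10 q of at least 10 only, the numbers also overlapped (32606 and 37415 against 23989 and 33719, exact p = 0.667).

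R232fs peaks were slightly narrower and closer together. Median width was 422 and 418 bp in R232fs and 443 and 457 bp in Y287X. Among peaks of fold 5 or more the direction was the other way, with R232fs wider by 17.5 bp. The median gap to the next peak averaged 10792 bp in R232fs and 15392 bp in Y287X. Gaps shorten as a list grows, and over these lists they fell in the order in which peak numbers rose. The gap was not taken at equal list length.

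Sequencing depth could be read only indirectly, from the commonest local background that fold and p imply. This background was 3.92 and 4.02 fragments per base in R232fs and 3.58 and 3.70 in Y287X. The 4 lists stood in the same order by this value as by their number of peaks. The part of depth in the surplus of R232fs peaks was not tested.

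**Figure D1:**
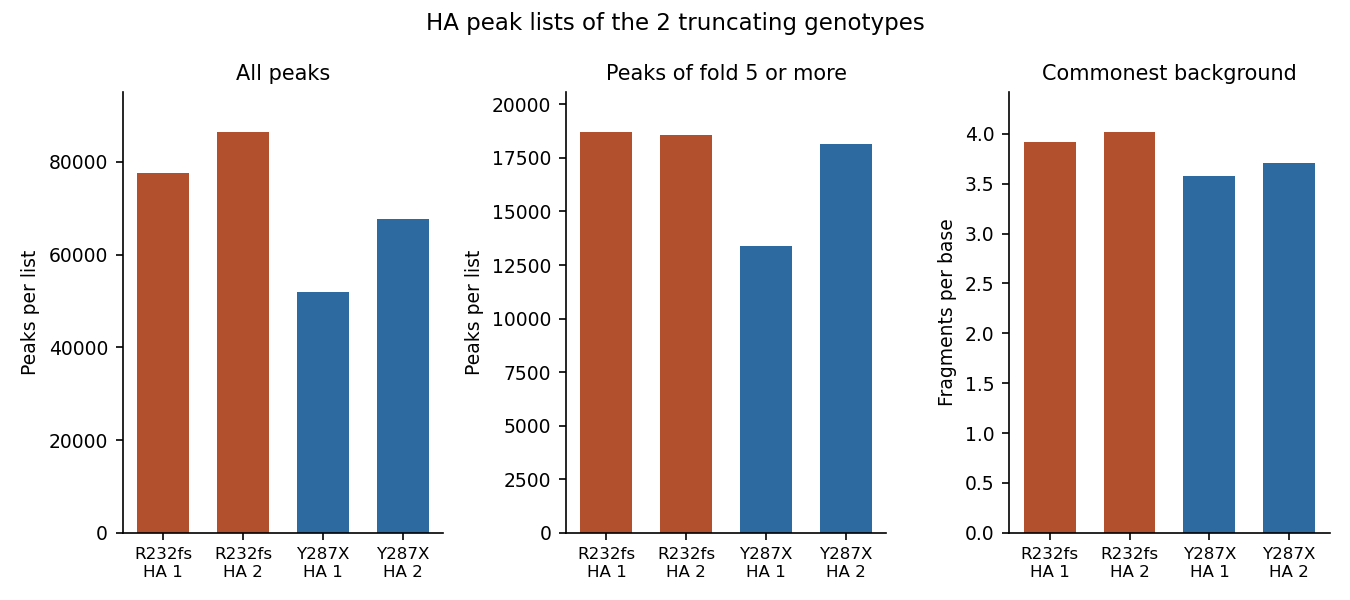
Bars give, for each of the 4 HA lists, the number of peaks, the number of peaks with fold of 5 or more, and the commonest local background in fragments per base (R232fs in brown, Y287X in blue). The 77691 and 86433 peaks of R232fs exceed those of Y287X, whereas the peaks of fold 5 or more are nearly as many in the second Y287X list (18163) as in the R232fs lists.

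The lists of the same truncated protein were no more alike than the lists of different ones. Windows of 100 bp on each side of every summit were merged into 141309 regions over the 4 lists, and likeness was the Jaccard index, the shared regions divided by all regions of both lists. The index was 0.390 for the R232fs clones with each other and 0.418 for the Y287X clones with each other. Across genotypes it was 0.425 for both first clones, 0.427 for the first R232fs with the second Y287X clone, 0.339 for the second R232fs with the first Y287X clone and 0.431 for both second clones. Of the 4 mixed pairs, 3 thus exceeded both pairs of one genotype.

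Means were 0.404 within and 0.405 between genotypes, a difference of -0.0013 (exact 1-sided permutation p = 0.667 over 3 pairings, of which 0.333 is the smallest possible). With each list cut to its 51892 strongest peaks by −log10 p, the R232fs pair reached 0.480 and the Y287X pair 0.464. The mixed pairs then lay at 0.498, 0.501, 0.425 and 0.542 in the order above, and the difference of means was -0.0196 (exact p = 0.667). At equal length the most alike lists were those of the second R232fs and the second Y287X clone.

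**Figure D2:**
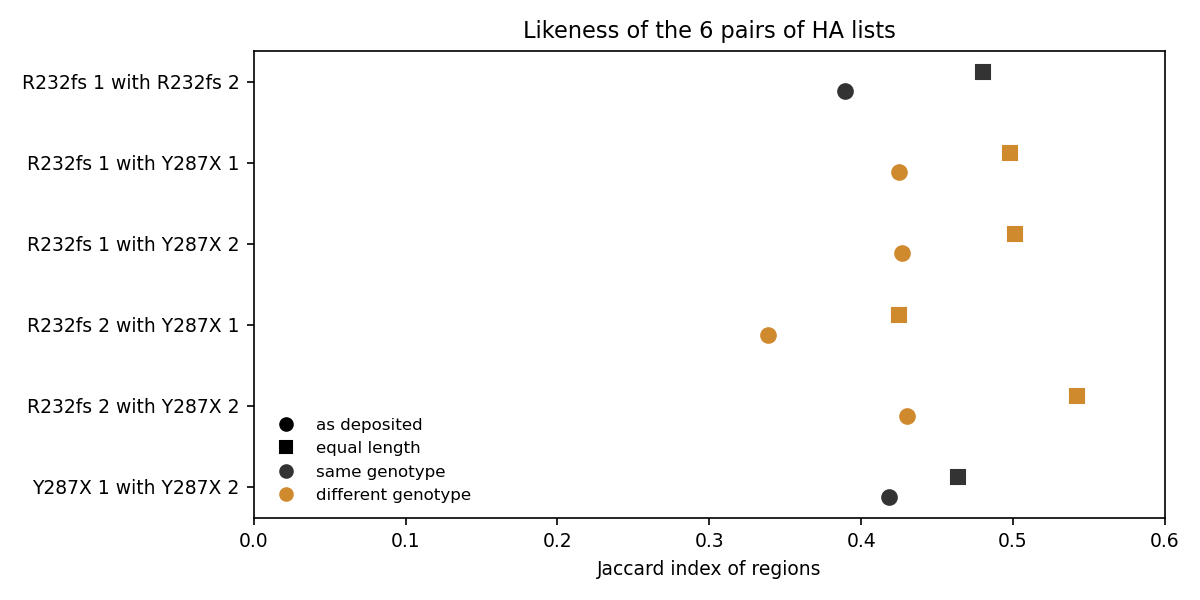
Points give the Jaccard index of regions for each of the 6 pairs of HA lists, as deposited (circles) and with lists cut to 51892 peaks (squares). Pairs of the same genotype (dark, 0.390 and 0.418 as deposited) lie among the mixed pairs (orange, 0.339 to 0.431).

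A core of 28952 regions (20.5% of 141309) was bound in all 4 lists. A further 15592 (11.03%) were in 3 lists, 24250 (17.2%) in 2 and 72515 (51.3%) in a single list. Nearly all of the core was also bound by the wild-type protein of these clones: 99.4% of the regions had a summit in at least 1 of the 4 TY1 lists and 72.6% in all 4. Only 174 core regions (0.601%) had no TY1 summit in these clones, and 89 of those were in none of the 10 other lists. The WT HA list held 55.0% of the core and the WT TY1 list 85.1%, the latter being the longer list (59452 against 37472 peaks).

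The strongest core region lay on chromosome 2 (chr2:11094004-11094208, hg19). Its fold was 174 and 179 in R232fs and 213 and 253 in Y287X, and 170 to 369 in the TY1 lists of these clones. In the G365R and WT lists the same region had a fold of only 8.52 to 17.5.

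On chromosome 10 (chr10:1296015-1296236) the genotypes overlapped, at 165 and 203 in R232fs and 177 and 153 in Y287X. The region chr1:145129854-145130084 showed both genotypes splitting alike by clone, with 106 and 178 in R232fs and 87.6 and 178 in Y287X. At chr6:131520981-131521197 the values were 80.3 and 103 against 85.9 and 133. At chr10:96059316-96059553 both Y287X lists (88.9 and 132) exceeded both R232fs lists (70.2 and 81.9). Groups whose fold did not overlap were thus found at 2 of these 5 regions, with R232fs lower at both. Over the whole core the groups' ranks of fold were apart with R232fs higher in 18.3% of regions and with R232fs lower in 15.6%. Ranks within a list are another measure than fold. At chr2:11094004-11094208 the first R232fs list and both Y287X lists had their highest fold, so by rank the groups were not apart there. No share on the scale of fold was computed, and nothing is read from the count. No annotation of the build hg19 was used, so regions are given by position without genes or sequence.

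Summits of the core lay close together in every pair of lists. The median distance was 26 bp within R232fs, 26 bp within Y287X, and 24, 26, 27 and 19 bp for the mixed pairs in the order given above. Mean distance was 43.6 bp within and 40.7 bp between genotypes, a difference of 2.84 bp (exact 1-sided p = 0.667 over 3 pairings). The closest summits were again those of both second clones, of which 79.9% lay within 50 bp.

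Strength within the core was compared with normal scores of each list's ranks of fold, in which 1 is about 1 SD of a list. Of 28952 regions limma called 0 higher in R232fs (0.0%) and 0 lower (0.0%) at a Benjamini-Hochberg adjusted p under 0.05. The lowest adjusted p was 0.965, and 1363 regions (4.71%) had an unadjusted p under 0.05. The median SE of a difference was 0.338, with a median half-width of the 95% interval of 0.753. These intervals are for single regions without adjustment. With 2 clones a genotype even the largest difference among regions whose groups were apart, -2.02, was not called.

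Differences between the mean scores were mostly small. The median absolute difference was 0.247, 5470 regions (18.9%) differed by more than 0.5 and 517 (1.79%) by more than 1. In 5286 regions (18.3%) both R232fs scores lay above both Y287X scores, and in 4519 (15.6%) both lay below. Clones of one genotype differed as much as clones of different ones: the SD of the score difference was 0.615 within R232fs, 0.505 within Y287X and 0.484 to 0.642 over the mixed pairs. Across these regions, which share peak calling and chromatin, scores of the first R232fs clone correlated with r = 0.811 with the second R232fs clone, 0.883 with the first Y287X clone and 0.869 with the second. The second R232fs clone correlated with r = 0.794 with the first and 0.827 with the second Y287X clone, and the Y287X clones with each other with r = 0.872. The R232fs pair thus lay below 3 of the 4 mixed pairs and the Y287X pair above 3 of them.

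**Figure D3:**
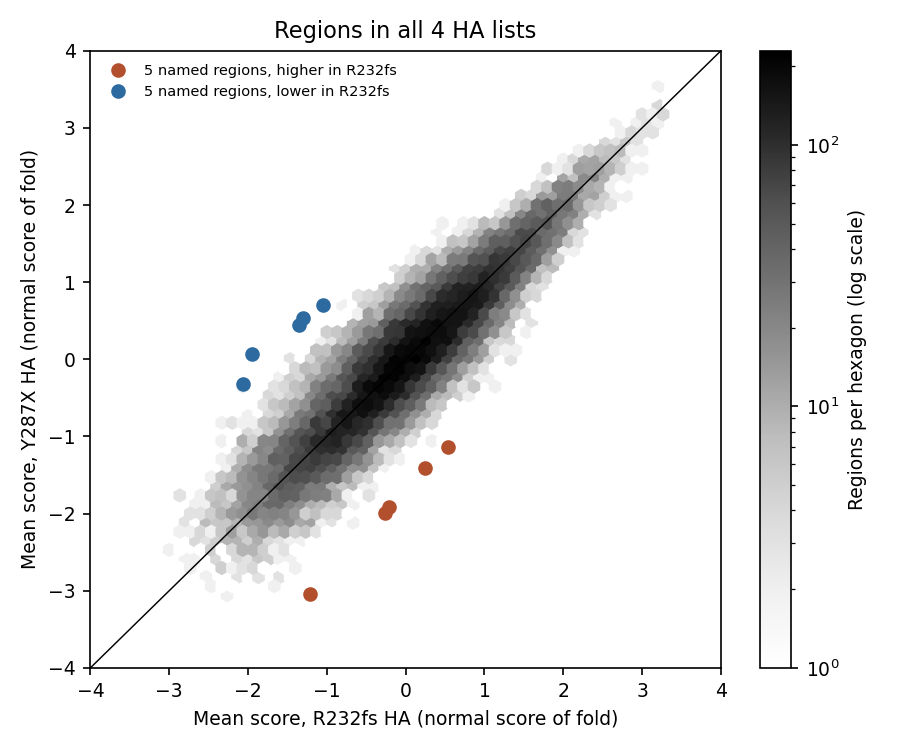
Each of 28952 core regions is placed by its mean normal score of fold in the R232fs lists (horizontal) and the Y287X lists (vertical), with shading for regions per hexagon on a log scale. The cloud follows the line of equality, and the 10 named regions (brown and blue points) differ by 1.64 to 1.84 (higher in R232fs) or by -1.75 to -2.02 (lower), none with an adjusted p under 0.05.

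The 10 regions named next had the largest score differences among those whose groups were apart, and none passed the test (limma adjusted p = 0.965 each). Highest in R232fs was chr4:76439395-76439741, with fold 1.78 and 3.71 in R232fs and 1.37 and 1.47 in Y287X, a score difference of 1.84 ± 0.50 (SE). With ranks of summit pileup in place of fold that difference turned to -0.11. The same ranks reduced the other 4 differences on the R232fs side to between 0.37 and 1.14 and the 5 on the Y287X side to between -0.27 and -0.68, so the sizes given here hold for fold only. At chr5:783999-784334 fold was 3.65 and 4.39 in R232fs and 1.63 and 1.82 in Y287X (1.73 ± 0.34), and no R232fs TY1 summit fell there.

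The 3 other regions on the R232fs side differed by 1.64 to 1.70. They were chr11:65186304-65186702 (fold 3.03 and 5.46 against 1.68 and 1.83), chr5:134389040-134389319 (5.61 and 7.62 against 2.77 and 2.00) and chr20:21495384-21495619 (5.06 and 5.78 against 2.39 and 1.86). In the last of them TY1 fold was 3.79 and 6.32 in R232fs clones and 2.53 and 2.24 in Y287X clones. At the chromosome 5 region it was 5.01 and 5.38 against 4.04 and 3.71, so the wild-type protein had the same order at both. At the chromosome 11 region the TY1 groups overlapped, at 2.13 and 4.74 against 2.01 and 2.80.

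Lowest in R232fs was chr6:14540333-14540630, with fold 1.85 and 2.09 in R232fs and 4.04 and 4.82 in Y287X, a score difference of -2.02 ± 0.34 (SE). The wild-type protein gave 2.66 and 4.42 there in R232fs clones and 4.397 and 6.67 in Y287X clones, groups that overlapped. At chr2:75076504-75076982 fold was 2.19 and 2.73 against 4.87 and 7.55 (-1.83 ± 0.31), whereas TY1 fold overlapped, at 4.48 and 5.44 against 3.48 and 10.3.

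At chr5:14741966-14742193 HA fold was 3.52 and 2.38 against 6.63 and 7.08, a difference of -1.76 ± 0.44. Neither R232fs TY1 list had a summit there, while both Y287X TY1 lists did (7.83 and 9.26), so both proteins of the R232fs clones were low at this region. The remaining regions were chr7:30180779-30181357 (2.96 and 2.16 against 3.92 and 8.63) and chr17:36690190-36690573 (1.81 and 2.00 against 3.92 and 3.12). TY1 fold overlapped at the chromosome 7 region, at 4.54 and 2.05 in R232fs clones against 4.37 and 7.34 in Y287X clones. At the chromosome 17 region neither R232fs TY1 list had a summit and both Y287X TY1 lists did (4.17 and 2.44).

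Score differences of the truncated proteins were shared in part with the wild-type protein of the same clones. At 21455 regions found in all 8 lists of these clones, the HA difference R232fs minus Y287X correlated with the TY1 difference of the same clones with r = 0.537 (rho = 0.519). The deviation of each HA list from the other 3 HA lists correlated with the same deviation of its own clone's TY1 list with r = 0.608 and 0.714 in R232fs and 0.609 and 0.587 in Y287X. With TY1 lists of other clones r ran from -0.436 to 0.114. Deviations over 4 lists sum to 0, so a positive r with the own clone by construction lowers the mean of the others. The lists of a clone share cells and may share a control library, which the sources used here do not give, so these values are descriptions without a test. With HA minus TY1 taken within each clone, a step added after the data had been seen, limma called 0 of 21455 regions (0.0%), with 1819 (8.48%) at an unadjusted p under 0.05 and a lowest adjusted p of 0.571.

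Regions specific to a genotype were defined as those in both lists of one and in neither list of the other. There were 6343 for R232fs and 1421 for Y287X as deposited, but 2321 and 2019 with lists of equal length. Of the former 10.1% and of the latter 32.4% overlapped a whole peak of the other genotype whose summit lay elsewhere, which left 5701 and 961 regions. They were weaker than the core: median fold was 3.20 and 3.28 in the R232fs set and 3.50 and 3.77 in the Y287X set, against 3.71 to 4.98 in the core. Similar shares, 22.5% and 23.7%, lay within 5 kb of a core region.

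The TY1 lists of the Y287X clones were longer (49749 and 81561 peaks) than those of the R232fs clones (40112 and 59140) and held more of most sets. In the core their mean shares were 93.6% and 85.9%. In the 4 sets found in 1 list of each genotype only, the Y287X TY1 lists held 33.7% to 48.1% and the R232fs TY1 lists 17.9% to 33.6%, so equal shares are not the value that no difference between genotypes would give. R232fs-specific regions had TY1 summits in 11.3% and 39.4% of cases in the R232fs clones and in 13.6% and 36.9% in the Y287X clones, with means of 25.3% each, without the surplus for Y287X TY1 seen in the core and in those 4 sets. Y287X-specific regions had TY1 summits in 41.2% and 63.8% in the Y287X clones and in 19.4% and 30.0% in the R232fs clones, groups that did not overlap. Their means of 52.5% and 24.7% lay further apart than in the core or in those 4 sets. No test was made of these shares. The WT HA list held 7.55% of the R232fs set and 21.5% of the Y287X set, and the WT TY1 list 18.7% and 32.2%. In either genotype the second clone's TY1 list, which is the longer one, held more of both sets than the first clone's.

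Pairs of lists from different genotypes also shared regions that neither other list had, in similar numbers. The first R232fs and the first Y287X clone alone shared 4802 regions, the second clones alone 6691, the first R232fs with the second Y287X clone 3419, and the remaining mixed pair 1574. The 6343 regions of the R232fs pair fell within this range and the 1421 of the Y287X pair just below it. At equal length the first clones (4572) and the second clones (4205) each shared more than either genotype pair.

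These crossed sets differed in the other lists. Of the regions that only the first clones shared, 54.4% were in the WT HA list, 67.4% in the WT TY1 list and 44.2% and 45.8% in the G365R HA lists, with median fold 4.47 and 4.15. Of those that only the second clones shared, 5.68%, 15.0%, 5.28% and 5.26% were found in these lists, and median fold was 3.15 and 3.18. The TY1 lists split by clone in the same way: the first set was in 56.9% of cases in the first and 10.3% in the second R232fs TY1 list, and the second set in 5.77% and 53.7%. In the G365R and WT lists the shares thus differed more between the first-clone and second-clone sets than between the genotype sets. The labels do not say whether clones of the same number were handled together, and the part of such a batch in these sets was not tested.

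**Figure D4:**
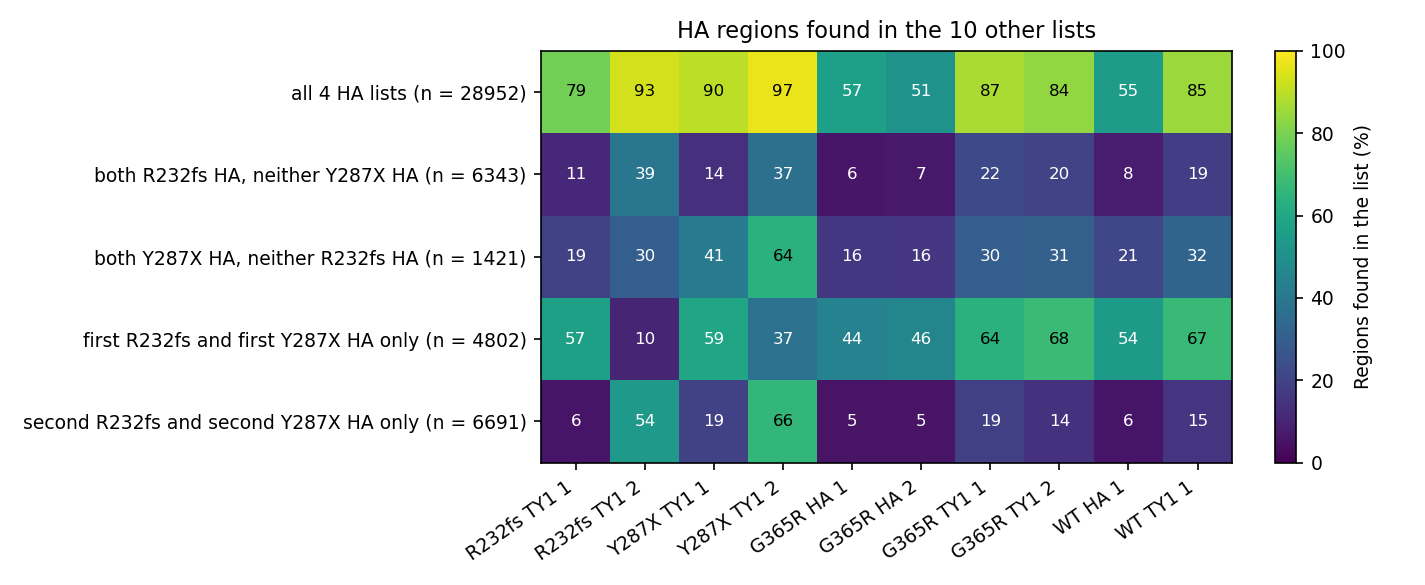
Cells give the percentage of regions of each kind (rows, with their number) that have a summit in each of the 10 lists that did not define them (columns). Regions of all 4 HA lists are found in 51.3% to 97.1% of cases. R232fs-specific regions are found on average in 25.3% of cases in the R232fs and in the Y287X TY1 lists, although the latter hold more of the core (93.6% against 85.9%). The sets shared by first or second clones differ widely in the G365R and WT lists and in the R232fs TY1 lists.

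Single regions of the specific sets showed the same mixture. The lower of the 2 HA folds reached 18.9 over all 6343 R232fs-specific regions. Regions named here come from the 5701 that overlapped no whole peak of the other genotype. The highest of these by lower fold was chr6:12151139-12151340 (fold 15.5 and 12.6 in the HA lists). It had a TY1 summit in the second R232fs clone (8.40) and in neither Y287X clone. The first G365R TY1 list (4.77) and the WT TY1 list (5.10) also had a summit there. At chr15:94831110-94831343 HA fold was 12.0 and 10.8 and TY1 fold 20.1 and 13.2 in the R232fs clones, and neither tag had a summit there in either Y287X clone.

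That chromosome 15 region was bound in all G365R and WT lists as well, with fold 5.998 to 14.3, so it was present everywhere but in the Y287X clones. At chr16:53988549-53988770 HA fold was 7.93 and 8.37 and TY1 fold 14.4 and 11.03 in R232fs, against a single Y287X TY1 summit of 3.82. All G365R and WT lists had a summit there too (fold 4.84 to 9.57). The 2 others were chr10:80704772-80704973 (HA fold 9.40 and 8.32) and chr5:1575651-1575899 (8.21 and 8.03), both with a TY1 summit in the second Y287X clone (4.24 and 4.08). Both also had summits in some of the G365R and WT lists.

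Over all 1421 Y287X-specific regions the lower HA fold reached 19.7. Among the 961 of them that overlapped no whole peak of R232fs, chr4:118886887-118887129 led with HA fold 11.1 and 8.72. Wild-type protein was present there in all 4 clones, with TY1 fold 13.1 and 8.91 in Y287X and 7.84 and 7.50 in R232fs. All G365R and WT lists had a summit at this region as well (fold 4.12 to 9.05). At chr11:124877653-124877858 HA fold was 7.21 and 10.4 and TY1 fold 10.8 and 18.7 in Y287X. Of the R232fs clones only the second had a TY1 summit there (7.94), while all G365R and WT lists had one (4.07 to 8.38).

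The region chr4:82179032-82179242 had HA fold 6.55 and 7.66, and TY1 fold 6.09 and 20.1 in Y287X against 5.07 in the second R232fs clone. At chr2:144302697-144302931 (6.77 and 6.59) all 4 TY1 lists had a summit, and at chr1:145290672-145290911 (6.55 and 6.38) only those of Y287X did. Of the 5 Y287X-specific regions, 2 thus had wild-type RUNX1 summits in both R232fs clones where the R232fs protein had none. All 5 also had summits in some or all of the G365R and WT lists.

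Along the genome, peak shares per chromosome overlapped between genotypes for 16 of 23 chromosomes. R232fs shares were higher on 3 chromosomes (13.0%), which were 10, 15 and 18, and Y287X shares on 4 (17.4%), which were 1, 2, 12 and X. The ratio of mean shares ran from 0.881 (X) to 1.12 (chromosome 18). On X the HA shares were 1.86% and 1.78% of peaks in R232fs and 2.07% and 2.06% in Y287X. The TY1 shares of X had the opposite order, 2.30% and 2.26% in R232fs clones and 2.21% and 2.07% in Y287X clones. At equal length X stayed lower in R232fs HA (1.98% and 2.00% against 2.07% and 2.19%). On the R232fs side only chromosome 15 was apart at equal length, while 10 and 18 overlapped. On the Y287X side chromosome 2 then overlapped, and 6 and 7 were apart besides 1, 12 and X. Copy number of these clones was not measured here.

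Differences of peak density over 1 Mb stretches were shared in part with the wild-type protein. Of 1814 stretches with at least 40 HA peaks, the density per 10000 peaks was higher in both R232fs lists in 15.8% and in both Y287X lists in 16.5% (300 stretches). The TY1 density of the same clones had the same direction in 199 (69.3%) and 220 (73.3%) of them, compared with 50.3% and 49.7% over all stretches. The TY1 lists of the genotypes were apart in the same direction in fewer, 81 (28.2%) and 88 (29.3%), compared with 12.1% and 14.2% over all stretches. Among the 20 stretches with the largest HA ratio in each direction, 19 and 17 had a TY1 ratio of the same direction. In 13 and 8 of these the TY1 lists were apart. The lists of a clone may share a control library, and no test was made of these counts.

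On chromosome 3 from 22 to 23 Mb (chr3:22000001-23000000) 19 and 17 HA peaks lay in R232fs and 5 and 5 in Y287X. The TY1 lists held 11 and 9 peaks there in R232fs clones and 2 and 3 in Y287X clones, so mutant and wild-type protein were sparse together. At chr15:96000001-97000000 the HA lists held 18 and 20 peaks against 5 and 6, and the TY1 lists 11 and 13 against 7 and 6. The G365R and WT lists held 21 to 53 peaks in that stretch, more than either truncating genotype.

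At chr3:177000001-178000000 HA peaks numbered 25 and 36 against 11 and 10, with TY1 at 16 and 24 against 11 and 14. In the other direction chrX:123000001-124000000 held 16 and 12 HA peaks in R232fs and 16 and 36 in Y287X. Per 10000 peaks these were 2.06 and 1.39 against 3.08 and 5.33. The second Y287X clone also had 45 TY1 peaks there, against 9 to 13 in the other clones, so this stretch stood out in 1 clone. At chr9:76000001-77000000 the HA counts were 5 and 18 against 20 and 15, and the TY1 counts 3 and 9 against 15 and 21. These HA counts overlapped, and the HA groups were apart only per 10000 peaks (0.644 and 2.08 against 3.85 and 2.22).

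Stretches that stood out in a single clone were as pronounced. At chr6:156000001-157000000 the second R232fs HA list held 53 peaks and the other HA lists 5 to 12, and its TY1 list held 32 against 9 to 13. At chr1:57000001-58000000 the first R232fs HA list held 57 peaks against 15 to 18, with TY1 at 37 against 11 to 17. In both stretches the clones of R232fs differed from each other by more than the genotypes did on average.

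**Figure D5:**
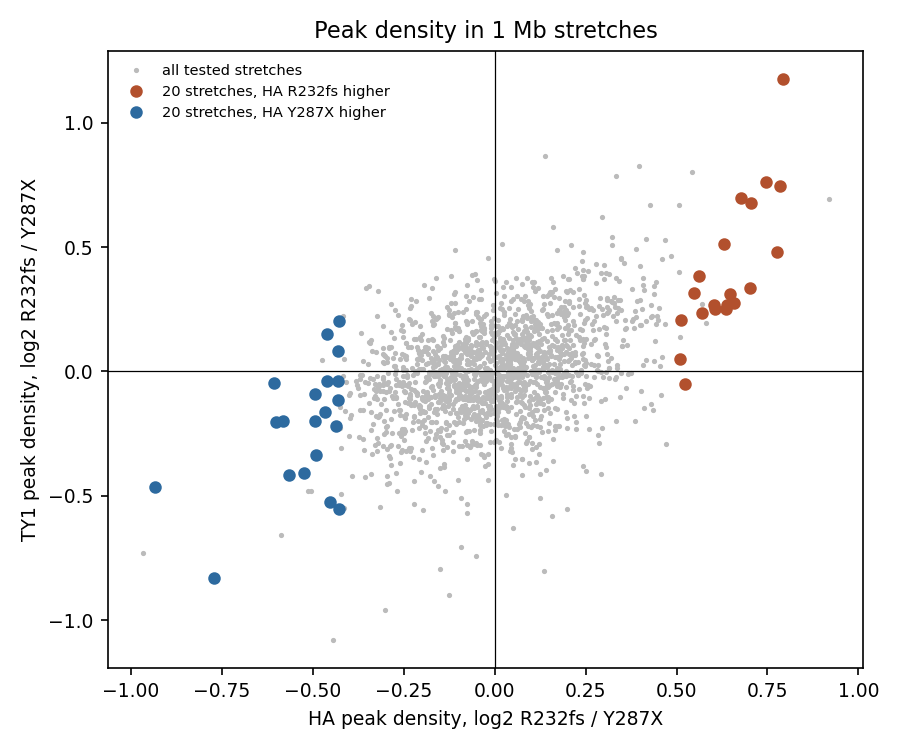
Each grey point is 1 of 1814 stretches of 1 Mb, placed by the log2 ratio of mean peak density R232fs over Y287X (1 peak per 10000 added) in HA lists (horizontal) and in TY1 lists (vertical). Of the 40 stretches with the largest ratio among those whose HA lists were apart (brown and blue), 19 and 17 lie on the same side of 0 for both proteins.

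The highest pileups of the lists were not typical peaks. In 3 lists the highest lay on chromosome 21 near chr21:9825667-9826160, with 5369 fragments in the first R232fs list and 3671 and 4301 in the Y287X lists, over backgrounds of 2813, 2829 and 2795. The second R232fs list had 5993 fragments in the same place. Its highest value was elsewhere, at chr17:56402071-56402302, with 142604 fragments over a background of 125023, a fold of 1.14 in a narrow peak that no other list had.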

How the data were processed

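Values come from 4 HA narrowPeak lists, 1 per library and not pooled, with 10 other lists as readouts. The tools named per the submitters' processing notes are Bowtie2 2.2.9, MACS2 2.2.7.1 and CASAVA 1.8, with build hg19; the caller settings were not given in the sources used here. The deposited columns were a fold (linear ratio), −log10 p and −log10 q values and a score, all from the authors' peak calls.

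Peaks on chromosomes 1 to 22 and X were kept, and no list of artefact-prone regions was applied. Summit windows of 100 bp each side were merged at 1 bp overlap. Depth was not given. Pileup and background were solved from fold and p under a Poisson formula with a pseudocount of 1. In the 4 HA lists at least 99.99% of pileups tested (under 1000) were whole within 0.05. The share was only 8.05% in the first G365R TY1 list and 6.84% in the WT TY1 list, for a reason that was not tested. Ranks of fold became normal scores, compared with limma 3.58.1 (R 4.3.3, trend, threshold 0.05). The fit has 2 residual degrees of freedom. Single values were compared by exact permutation over lists. Python 3.11.15, numpy 2.4.6, pandas 2.3.3, scipy 1.17.1 and matplotlib 3.10.9 were used, and the steps were tested on simulated data. The limma p-values rest on the spread between 2 clones a genotype, with each region's variance moderated toward the trend over all regions (empirical Bayes). The exact p-values only count arrangements of the lists.

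Named regions were, by rule, the 5 strongest core regions, the highest pileup of each list and the 5 largest score differences in each direction. The score differences were taken among regions whose groups were apart. Of the genotype-specific regions the 5 with the highest lower fold were named, among those overlapping no whole peak of the other genotype. The 1 Mb stretches were added after the data had been seen. Members, rules and lists were chosen with earlier results of these data known. Alternatives were other thresholds, windows, list lengths, ranks and sets of lists.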

Additional observations from a re-analysis of the deposited data

Results flagged for a closer look

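Peaks also lay on sequences other than the numbered chromosomes and the sex chromosomes, which entered no comparison. There were 920 in the first R232fs HA list (1.17% of its deposited peaks), 1079 in the second (1.23%), 732 in the first Y287X HA list (1.39%) and 949 in the second (1.38%). Their share was lower in both R232fs lists than in both Y287X lists.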

How the results depend on the processing

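The higher number of R232fs peaks and their larger covered length kept their direction under both stricter thresholds and without any single list. The width difference turned from -30.0 bp to 22 bp at −log10 q of at least 10 and to 17.5 bp at fold 5 or more. The Jaccard difference turned positive for 250 bp windows (0.0018) and for whole peaks (0.0038), and ran from -0.039 to 0.033 with single lists left out. R232fs-specific regions numbered 2321 and 2744 at equal length by −log10 p and by fold, 1852 at −log10 q of at least 10 and 8596 to 36530 with a list left out. Y287X-specific regions numbered 2665 at equal length by fold, 499 at −log10 q of at least 10 and 3682 to 15400 with a list left out, since fewer lists then define them. The excess of own over other TY1 share was 0.079 percentage points for R232fs-specific regions. It was 4.22 at equal length by −log10 p, 0.49 at equal length by fold and 1.73 at −log10 q of at least 10. The sign turned for 250 bp windows (-0.73) and for whole peaks (-0.18). For Y287X-specific regions the excess was 27.9, with 29.6 and 23.1 at equal length by −log10 p and by fold. It was 28.1 at −log10 q of at least 10, 31.8 for 250 bp windows and 32.8 for whole peaks. In the core the Y287X TY1 lists held 93.6% and the R232fs TY1 lists 85.9%. Equal shares are therefore not the value that no difference between genotypes would give.

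limma called 0 regions under every alternative except without the first Y287X list, with 0 to 1 calls when a list was left out. The call was chr2:178013513-178013735, with fold 77.1 and 87.4 in R232fs and 53.5 and 35.9 in Y287X (limma adjusted p = 0.000225 without that list, which assumes the lone Y287X list to vary like the others, and 0.965 with it). The replicate block gave 0 calls and 2059 regions at an unadjusted p under 0.05. The labels give same-numbered clones of the genotypes nothing in common but the number. Deviations of the first clones from their genotype means correlated with r = 0.151 over 28952 regions. Those of the second clones are the same values with the sign turned, so this is a single comparison. A shared batch was neither shown nor tested. Chromosomes whose shares were apart numbered 7 of 23, 6 at equal length, and 10 to 21 with a list left out. Groups are apart more easily when a list is left out, so the last counts are not comparable with the others. Of 90 alternative score differences of the named regions 89 kept their direction, and chr4:76439395-76439741 turned to -0.11 with pileup ranks, which brought the other 9 to between 0.37 and 1.14 or between -0.27 and -0.68. Stretches shifted by 0.5 Mb or at equal list length gave 35 and 38 of 40 with the TY1 direction, against 36. The cause of these shifts was not tested. Depth is known only through the background and 2 clones a genotype limit every comparison.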
